A study of Mus musculus with 2 samples.

Results

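The genes of the circadian clock were examined in a map of H3K36me3, the histone H3 methylation written by SETD2 on transcribed genes, in primary mouse keratinocytes (KCs). The 10 genes were taken by name: *Arntl* (which encodes BMAL1) and *Clock* as activators; *Per1*, *Per2*, *Per3*, *Cry1* and *Cry2* as repressors; *Nr1d1* and *Nr1d2* as the nuclear receptors of the second loop; and *Dbp* as an output factor. A peak belonged to this set if the deposited annotation gave it to one of these genes, or if at least 1 bp of it lay between the start and end of the gene in GENCODE vM21 on GRCm38. This gave 48 of the 45575 peaks analysed, 46 on the body of a clock gene and 2 off it. All 10 genes were found among the 21938 protein-coding genes of the annotation. The cells came from the skin of 10-week-old C57BL/6 mice of the genotype Setd2fl/fl, floxed animals that were the control genotype of the study; how many mice were pooled is not stated. There was 1 ChIP library with an H3K36me3 antibody, and 1 input library that was not analysed here.

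There was no second genotype, time point or replicate in the data analysed, so no value below carries a spread and no difference between genes was tested. The sequencing depth is unknown, and no source used here gives the time of day at which the skin was taken. In a bulk sample, a mark on fewer cells and a weaker mark in each cell cannot be told apart. The KC label was checked against markers: *Krt5* and *Krt14*, the defining keratins of basal KCs, were inside peaks over 96.0% and 89.9% of their bodies, and all 8 listed KC markers had a peak. Markers of other cells had a peak in 0 of 6 cases for fibroblasts, 1 of 4 for melanocytes, 1 of 5 for immune cells and 1 of 4 for endothelial cells, with at most 15.3% of a body covered.

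The mammalian clock is a feedback loop of transcription. CLOCK and BMAL1 bind E-boxes and activate the *Per* and *Cry* genes, whose proteins return to the nucleus and repress the CLOCK-BMAL1 pair. A second loop runs through the receptors REV-ERBα and REV-ERBβ (*Nr1d1* and *Nr1d2*), which repress *Arntl*, and *Dbp* passes the rhythm on to further genes. In the epidermis the clock is known for timing KC proliferation and DNA repair over the day. H3K36me3 is laid down behind elongating RNA polymerase II, so it lies on the body of a gene and not on its promoter.

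H3K36me3 lay on the body of every clock gene, on activators and repressors alike. All 10 genes had a peak on the body, where 51.4% of all protein-coding genes had one (exact binomial 95% interval 50.7 to 52.0%, counting error only). The covered share, the part of a gene's length that lies within peaks, ran from 31.9% for *Cry1* to 86.6% for *Per3*. Its median over the clock genes was 55.6%, against 1.07% over all protein-coding genes and 46.4% over the 11268 of them with a peak. *Per3*, *Cry2* (78.6%), *Nr1d1* (76.3%), *Per1* (63.2%), *Per2* (59.2%) and *Clock* (52.0%) were covered over at least 50% of the body. This level was reached by 23.8% of protein-coding genes, or 5222 of the 11268 with a peak. *Nr1d2* (41.5%), *Arntl* (35.0%), *Dbp* (32.4%) and *Cry1* made up the lower end of the order. With peaks of a *P* below 1e-05 only, the covered share was 16.5% for *Per2*, 7.66% for *Clock*, 3.58% for *Nr1d2* and 0 for *Per3* and *Cry1*, so the order of the genes depended on the threshold.

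**Figure D1:**
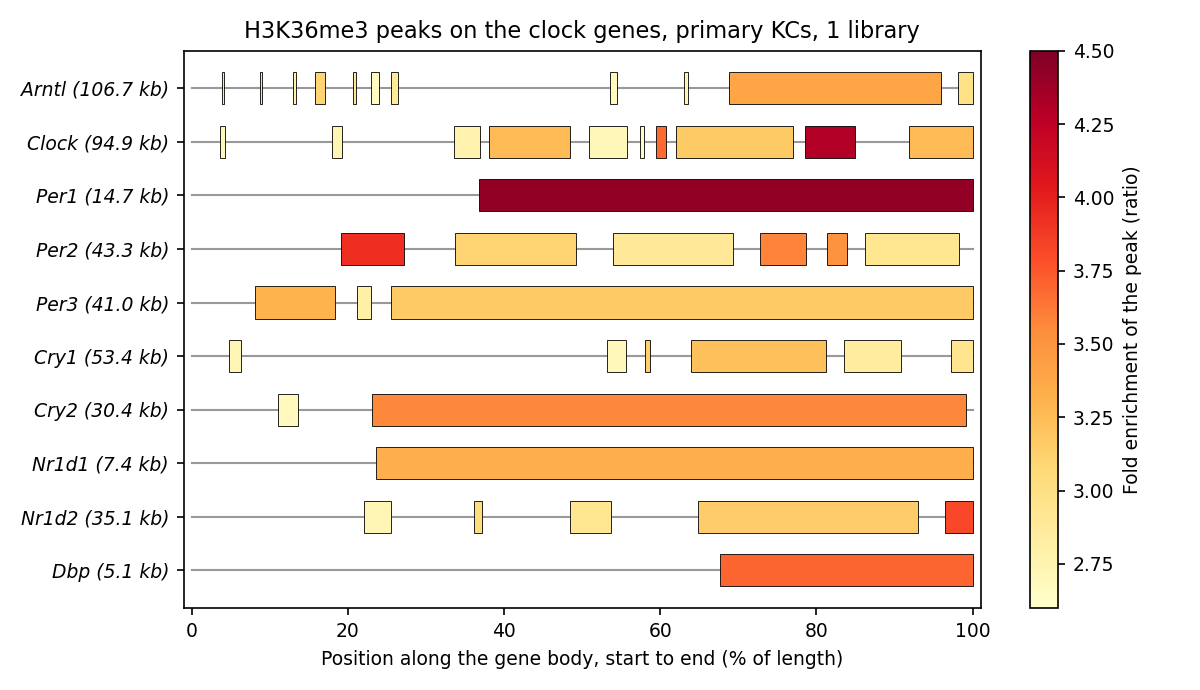
Each row is a clock gene drawn from its annotated start (left, 0% of its length) to its end (right, 100%), each box is an H3K36me3 peak clipped to the gene, and the colour gives the fold enrichment of the peak. The left end of every row is free of peaks. *Per1* and *Nr1d1* carry 1 peak each, *Cry2* 2 and *Per3* 3, where *Arntl* and *Clock* carry 11 and 10. Those of *Arntl* include a wide block of 28897 bp.

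The start of each clock gene was free of H3K36me3 peaks and its end was mostly inside one, a pattern common among marked genes. No annotated gene start lay in a peak (0 of 10), near the 2.04% of all genes with a peak on the body. The distance from the start of the gene to its closest peak base was shortest in *Nr1d1* (1751 bp) and longest in *Per2* (8307 bp). As a share of the body it was 3.64% in *Clock* and 67.6% in *Dbp*. The annotated end lay in a peak in 8 of 10 clock genes, against 60.7% of genes with a peak. The exceptions were *Per2* and *Cry2*, whose last peaks stopped at 98.3 and 99.2% of the body.

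All 10 clock genes had more peak bases downstream of the midpoint than upstream of it. This was near the share of 86.0% among 10299 marked protein-coding genes (length 5000 bp or more). All peak bases of *Dbp* lay downstream, as did 95.1% of those of *Cry1*, 86.6% of those of *Arntl* and 57.7% of those of *Per3*. In a profile of 20 equal bins along the body, a mean of 2.22% of bases lay in peaks in bin 1 of the clock genes, against 3.73% over those 10299 genes. In bin 15, the highest for the clock genes, the means were 94.5% for the clock genes and 59.4% for the 10299 genes. From bin 1 to bin 7 the clock mean was the lower one, with 13.6% against 26.2% in bin 4. In bin 12 the means were close, 56.2% for the clock genes and 54.1% for the 10299 genes. With peaks of a fold enrichment of at least 3 only, 9 of 10 clock genes had more peak bases downstream, and *Per2* had more upstream. Counted by the midpoints of peaks, 7 of the 10 clock genes had more of them downstream. No share over all genes is given for either setting, since the 86.0% is for bases of all peaks.

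**Figure D2:**
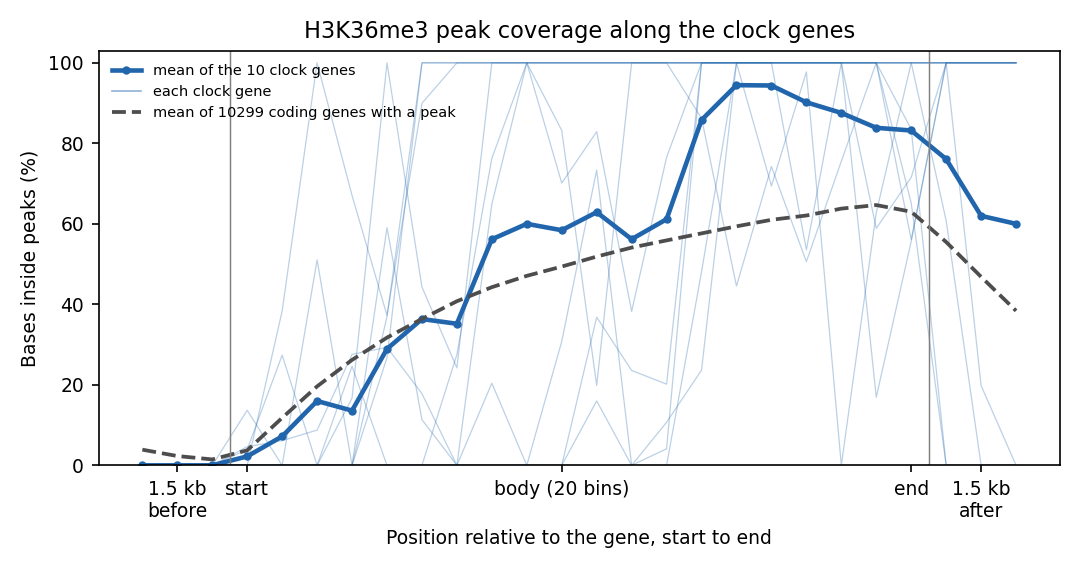
The y axis gives the percent of bases inside H3K36me3 peaks in 3 bins of the 1.5 kb before the gene, 20 bins of the body and 3 bins of the 1.5 kb after it; the thick line is the mean of the 10 clock genes, thin lines are single clock genes and the dashed line is the mean of 10299 protein-coding genes with a peak. The clock genes start at 2.22% in bin 1, reach 94.5% in bin 15 and stay above the dashed line from bin 8 onwards.

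The promoters lay outside the peaks, and motifs in them are shown because they are of the kinds through which clock proteins are known to act on each other's genes. RefSeq promoters on GRCm38, from 250 bases before to 50 after a start, were found for 9 of the 10 genes, 13 promoters in all; *Per2* had no match. None of the 13 touched a peak, and only 2.38% of 32851 promoters did. The E-box CACGTG, the site of CLOCK-BMAL1, was found in promoters of *Per1* and *Cry1* and in 7.15% of all promoters. By gene, 8.09% of the 27025 genes with a promoter had it. The E-box variant CACGTT, searched on both strands, was found in *Cry1*, *Cry2* and *Nr1d1*, in 4.68% of all promoters and in 5.44% of those genes. The D-box TTATGTAA, the site of DBP and its relatives, occurred at 2 places in *Per3*, in 0.938% of all promoters and in 1.11% of those genes. Each is printed 5′ to 3′ on the strand of the gene with the motif in capitals, so that CACGTT on the opposite strand reads AACGTG. These matches are letters in a window and not measured binding.
*Per1* E-box (chr11:69098771-69098800, + strand): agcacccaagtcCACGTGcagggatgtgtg
*Cry1* E-box (chr10:85185097-85185126, − strand): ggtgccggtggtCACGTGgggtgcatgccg
*Cry1* E-box variant (chr10:85185116-85185145, − strand): acacacttcagaAACGTGaggtgccggtgg
*Cry2* E-box variant (chr2:92434218-92434247, − strand): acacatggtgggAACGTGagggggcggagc
*Nr1d1* E-box variant (chr11:98775388-98775417, − strand): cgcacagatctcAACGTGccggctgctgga
*Per3* D-box, nearer the start (chr4:151044805-151044834, − strand): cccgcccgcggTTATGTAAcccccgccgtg
*Per3* D-box, farther from the start (chr4:151044852-151044881, − strand): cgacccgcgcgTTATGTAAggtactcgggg
The promoters with these motifs ended 1638 bp from the closest peak in *Per1*, 1704 bp in *Per3*, 1746 bp in *Nr1d1*, 2504 bp in *Cry1* and 3344 bp in *Cry2*. For *Per3* that closest peak lay before the gene, on *Vamp3*, and the first peak base on *Per3* itself was 3315 bp after its start. AGGTCA, the core of the sites of ROR and REV-ERB receptors, was found in promoters of *Arntl*, *Clock*, *Per1* and *Nr1d2*. It was found in 16.3% of all promoters and in 18.1% of the 27025 genes with a promoter. The cAMP response element TGACGTCA was found in none of the 13 promoters and in 1.79% of all. Both were searched on both strands.

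In most clock genes a larger share of exon bases than of intron bases lay in peaks. With exons pooled over all transcripts of a gene, the exon share exceeded the intron share in 9 of 10 clock genes, against 73.0% of all genes with a peak and an intron. The medians were 74.9% of exon bases and 49.5% of intron bases. In *Cry1* 67.8% of exon bases and 29.5% of intron bases were in peaks. In *Clock* the values were 85.7% and 46.3%. *Dbp* was the exception, with 18.0% of exon bases and 52.7% of intron bases. On principal transcripts alone the exon share was the larger in 8 of 10, *Per3* (84.3% of exon and 87.0% of intron bases) being the second exception. On the principal transcript of each gene, 123 of 155 exons were covered over at least 50% of their length. None of the 10 opening exons and all 10 final exons were among them, with 56.9% of the final exon covered in *Nr1d2* and 62.9% in *Per2*. No share over all genes is given beside these exon counts. A poor start and a rich end were general in this library. Over the 10299 marked genes, a mean of 3.73% of bases lay in peaks in bin 1 and 63.0% in bin 20.

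The activator genes carried many separate peaks with the widest or strongest towards their ends. *Arntl* (chr7:113207465-113314126, + strand, 106662 bp) had 11 peaks with fold enrichments, each a ratio of the ChIP signal over what the peak caller took as background, from 2.66 to 3.40. 7 peaks of 247 to 1470 bp lay in the first 26.4% of the gene, the last of them 38 bp after the start of a shorter coding transcript. After a peak of 854 bp at 53.6% and one of 570 bp at 63.0% of the body, a block of 28897 bp ran from 68.8 to 95.9% of it and held 77.3% of all covered bases of *Arntl* (fold enrichment 3.40, −log10 *P* 5.05). Of the 20 exons of the principal transcript 16 were covered. The last peak ran 2273 bp past the end of *Arntl* and onto *Btbd10*, which lies on the opposite strand.

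*Clock* (chr5:76209868-76304792, − strand, 94925 bp) was covered over 52.0%. This was more than 80.9% of the 4174 protein-coding genes of 0.5 to 2 times its length, with or without a peak. *Arntl* was covered more than 70.7% of genes of similar length. The 10 peaks on *Clock* ranged from 574 to 17979 bp, and 5 of them had a fold enrichment of at least 3. Its strongest peak (6026 bp, fold enrichment 4.30, −log10 *P* 7.64) lay at 78.5 to 84.9% of the body, and its fold enrichment exceeded that of 99.6% of all peaks. The peak at the end of the gene was shared with *Tmem165*, which runs towards *Clock* from the other side and ends 622 bp from it. *Arntl* and *Clock* thus differed in the height of their strongest peak, 3.40 and 4.30. Of their principal exons, 16 of 20 and 17 of 23 were covered.

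The *Per* genes, whose proteins form the repressor complex with the CRY proteins, included both the highest fold enrichment and the largest covered share of the clock genes. *Per1* (chr11:69095217-69109960, + strand, 14744 bp) carried 1 peak of 9629 bp with a fold enrichment of 4.42 and a −log10 *P* of 8.11; 99.7% of all peaks were lower. It began 5419 bp after the start of the annotated gene, which is set by an upstream transcript model. Measured on the principal transcript, which starts 3731 bp further in, 84.7% was covered and 22 of 23 exons lay in the peak. On a coding transcript whose start lies 114 bp before the peak, the covered share was 98.8%.

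*Per2* (chr1:91415982-91459324, − strand, 43343 bp) carried 6 peaks over 59.2% of the body. Its strongest peak was the one nearest the start (3489 bp at 19.2 to 27.2% of the body, fold enrichment 3.93), followed by 3.10, 2.89, 3.59, 3.51 and 2.92 towards the end of the gene. *Per2* was thus highest on its 5′ side. The strongest peak of *Per3* also lay there, at 8.08 to 18.3% of the body, while those of *Arntl*, *Clock* and *Nr1d2* began at 68.8, 78.5 and 96.4%. *Per3* (chr4:151003652-151044665, − strand, 41014 bp) was covered over 86.6%, more than 94.5% of genes of similar length, by 3 peaks of 31153, 764 and 4212 bp. The widest of them, with a fold enrichment of 3.16, was the widest on any clock gene and held 86.0% of the covered bases of *Per3*. The highest fold enrichment on *Per3* was 3.31, below the median highest value of 3.36 among genes with a peak. Those of *Nr1d1* (3.34) and *Cry1* (3.22) were also below this median.

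*Per3* lies wholly inside *Camta1*, a transcription factor gene of 944555 bp on the same strand, so each of its peaks lies on both genes. The covered share was 86.6% inside *Per3*, against 4.52% over the rest of *Camta1*, and 46.5% of all peak bases of *Camta1* fell inside *Per3*. The block ended 599 bp past the end of *Per3*, and no other peak base lay in *Camta1* beyond it. *Uts2*, the next gene after *Per3* and also inside *Camta1*, had no peak. Before the start of *Per3*, a peak of 9101 bp (fold enrichment 3.45) was assigned to *Per3* by the annotation but lay on *Vamp3*, which ends 2634 bp from it.

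**Figure D3:**
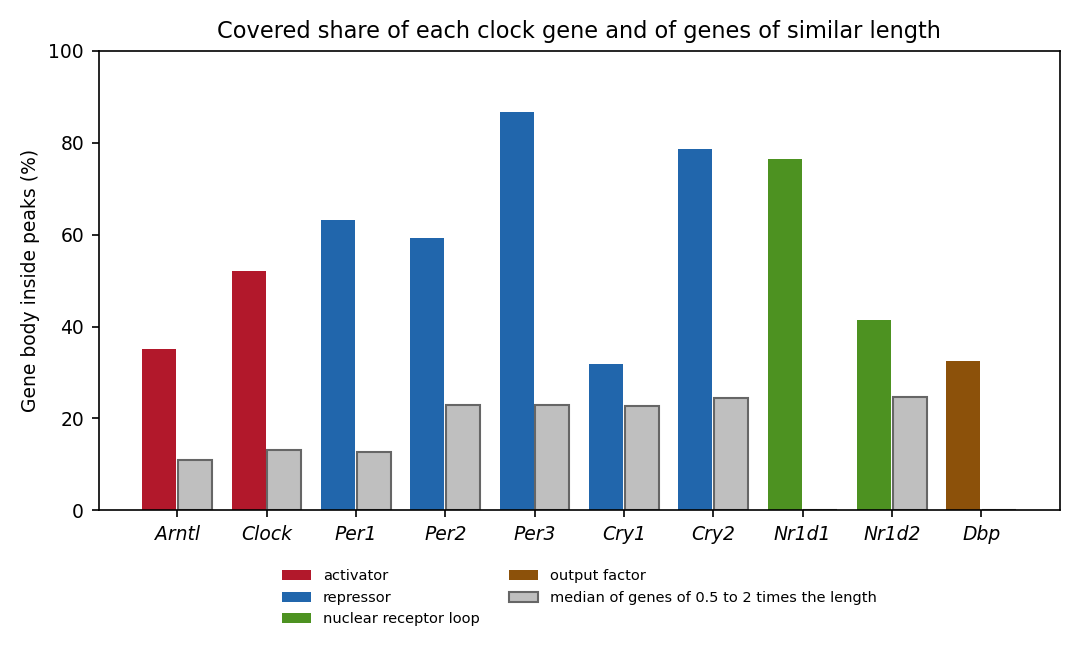
Bars give the percent of each gene body inside H3K36me3 peaks for the 10 clock genes (coloured by role) and, in grey, the median over protein-coding genes of 0.5 to 2 times the length of that gene. The clock gene stands above the median of genes of its length in all 10 pairs, and that median is 0 for the lengths of *Nr1d1* and *Dbp*. Genes without a peak count in these medians. Over genes with a peak, of any length, the median was 46.4%, above the covered shares of *Nr1d2*, *Arntl*, *Dbp* and *Cry1*.

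The cryptochrome genes, which encode the direct inhibitors of CLOCK-BMAL1, differed from each other in extent. *Cry2* (chr2:92403646-92434043, − strand, 30398 bp) was covered over 78.6% by 2 peaks. 1 block of 23108 bp with a fold enrichment of 3.57 held 96.8% of the covered bases, and 11 of 12 principal exons were covered. *Cry1* (chr10:85131700-85185064, − strand, 53365 bp) was covered over 31.9% by 6 peaks with fold enrichments from 2.70 to 3.22. Up to 53.2% of its body, *Cry1* had only 1 peak, of 836 bp near the start. *Cry1* was covered more than 56.3% of genes of similar length, the lowest such position among the clock genes, and *Cry2* more than 87.1%. None of the peaks on *Cry1* had a *P* below 1e-05, while the block on *Cry2* did (−log10 *P* 5.59).

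The receptors of the second loop both carried the mark. *Nr1d1* (chr11:98767932-98775333, − strand, 7402 bp) lay in 1 peak of 9614 bp with a fold enrichment of 3.34, over 76.3% of its body. That peak ran 3963 bp past the end of *Nr1d1* along *Thra*, a thyroid hormone receptor gene on the opposite strand whose end overlaps that of *Nr1d1*. On the bases of *Nr1d1* that lie on no other protein-coding gene the covered share was 72.3%. *Nr1d2* (chr14:18204054-18239127, − strand, 35074 bp) carried 5 peaks over 41.5% of its body, and 5 of its 8 principal exons were covered. Its highest fold enrichment, 3.81, belonged to a peak of 3044 bp across the end of the gene, and 98.1% of all peaks were lower. Only 1255 bp of that peak lay on *Nr1d2*. The peak ran 1789 bp past the end of the gene and was assigned to *Gm44469*. The other 4 peaks had fold enrichments of 2.73, 3.03, 2.92 and 3.15 from the start towards the end.

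*Dbp* (chr7:45705088-45710203, + strand, 5116 bp), which encodes a PAR bZIP factor driven by CLOCK-BMAL1, was marked only towards its end. 1 peak of 5055 bp with a fold enrichment of 3.70 covered the last 1658 bp of *Dbp*, and 1 of 4 principal exons lay in it. This peak continued 3397 bp past *Dbp* over *Sphk2*, a sphingosine kinase gene on the opposite strand that overlaps the end of *Dbp*. On the bases of *Dbp* alone the covered share was 21.0%, and 737 of the 1658 covered bases lay on both genes. The height of this peak cannot be divided between the 2 genes.

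**Figure D4:**
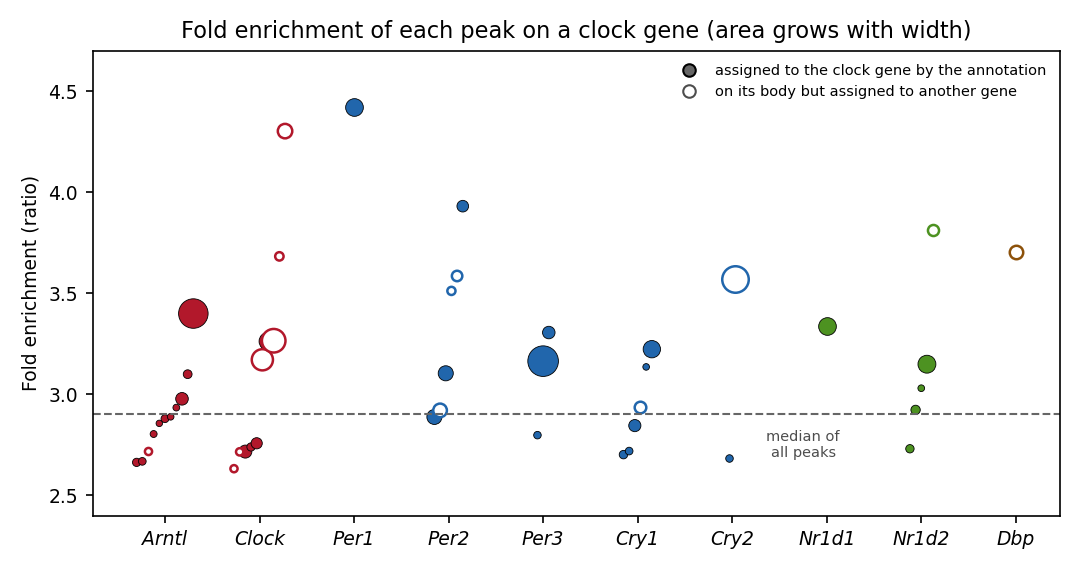
Each point is a peak on the body of a clock gene, the y axis is its fold enrichment and the area of the point grows with its width; filled points were assigned to the clock gene by the deposited annotation and open points to another gene. *Per1* and *Clock* hold the highest points, 4.42 and 4.30, and the highest points of *Clock*, *Cry2*, *Nr1d2* and *Dbp* are open.

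As a description with no test, the peaks on clock genes were set beside the whole library. Their median fold enrichment was 2.96, against 2.90 for all peaks, and 22 of 46 (47.8%) reached a fold enrichment of 3, against 40.0% of all peaks. 11 of 46 (23.9%) had a *P* below 1e-05, against 12.8% of all peaks. The median width was 2809 bp on the clock genes and 1614 bp overall. By gene, 8 of 10 clock genes had a peak with a *P* below 1e-05 on the body, against 24.6% of protein-coding genes; *Per3* and *Cry1* did not. All 10 had a peak with a fold enrichment of at least 3, against 42.6% of protein-coding genes. Both of these shares count genes without a peak. Of the 11268 genes with a peak, 5392 had one with a *P* below 1e-05 and 9352 one with a fold enrichment of at least 3. Among marked genes of similar length 99.4% had a lower maximum than *Clock*, 98.8% than *Per1*, 96.5% than *Per2* and 93.0% than *Nr1d2*. The share was 84.4% for *Dbp*, 76.3% for *Cry2*, 52.8% for *Arntl*, 51.9% for *Nr1d1*, 40.2% for *Per3* and 29.5% for *Cry1*. The peaks that set the maxima of *Nr1d2* and *Dbp* lay mostly past the end of the gene.

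The deposited annotation, which names the gene of the nearest transcript start, gave peaks to 9 of the 10 clock genes, against 45.4% of protein-coding genes. *Dbp* was the gene left out, its peak having been given to *Sphk2*. Of the 46 peaks on a clock gene, 14 were assigned to another gene: 6 of the 10 on *Clock*, of which 4 went to the processed pseudogene *Ube2n-ps1* inside it, 3 of the 6 on *Per2*, which went to *Hes6*, and 1 each on *Arntl*, *Cry1*, *Cry2*, *Nr1d2* and *Dbp*. In 4 genes (*Clock*, *Cry2*, *Nr1d2* and *Dbp*) the strongest peak was among these. *Hes6* itself had no peak on its body. 12 of the 46 (26.1%) were assigned to no protein-coding gene on which they lay, against 27.9% of all peaks on protein-coding genes. Of the 46 peaks, 22 were in the promoter class, which takes any peak within 3 kb of any transcript start, 14 in introns, 7 in exons, 2 in 5′ UTRs and 1 in a 3′ UTR. No share over all peaks is given beside these classes. 7 of the 44 transcript models of the clock genes started inside a peak, and none of the 10 gene starts did. For the transcript models, the 14 peaks assigned to another gene and the 4 strongest peaks among them, no general share is given.

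Other genes of the clock pathway mostly carried a peak as well. Of 25 listed genes, 22 had a peak on the body, against 51.4% of protein-coding genes. With peaks of a *P* below 1e-05 only, 11 of the 25 had one, against 24.6% of protein-coding genes. At least 50% of the body was covered in 11 of the 25, against 23.8% of protein-coding genes. The median covered share of the 25 was 37.2%, against 1.07% over all protein-coding genes and 46.4% over those with a peak. The genes listed for kinases of clock proteins, among them the regulatory subunit gene *Csnk2b*, were marked in 5 of 5 cases. *Csnk1d* was covered over 78.5%, *Csnk2b* over 70.5%, *Csnk1e* over 55.7%, *Csnk2a1* over 55.6% and *Gsk3b* over 33.2%. Of the ubiquitin enzymes, *Huwe1* was covered over 61.9%, while *Fbxw11* (23.5%), *Usp2* (20.8%) and *Btrc* (3.49%) were lower and *Fbxl21* had no peak.

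Paralogs of the core genes spanned a wide range. *Arntl2*, a paralog of *Arntl*, was covered over 59.0% by 9 peaks, and *Npas2*, a paralog of *Clock*, over 3.96% by 10 narrow peaks. *Rora*, which encodes a receptor that activates *Arntl* at the sites where REV-ERB proteins repress it, was covered over 2.85% of its 734461 bp, and *Rorb* had no peak. The repressor *Bhlhe40* was covered over 81.6%, the highest of the 25, whereas *Bhlhe41* had no peak; *Ciart* was covered over 32.4%. The bZIP factors at the sites of DBP were all marked, *Tef* over 52.6%, *Nfil3* over 37.2% with a peak at a fold enrichment of 4.13, and *Hlf* over 18.3%. Of genes joined to the clock, *Wee1* was covered over 74.5%, *Nampt* over 64.7%, *Cdkn1a* over 62.0%, *Timeless* over 38.8% and *Sirt1* over 26.3%. The peak on *Cdkn1a*, the cell cycle inhibitor p21, had the highest fold enrichment of these genes (4.56). The downstream part held more of the peak bases in 20 of the 22 marked genes, near the 86.0% of marked protein-coding genes in general, and *Arntl2* and *Hlf* were the exceptions. The lack of a listed peak means that the threshold of the deposited list was not passed, and it is not a measured absence of H3K36me3.

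**Figure D5:**
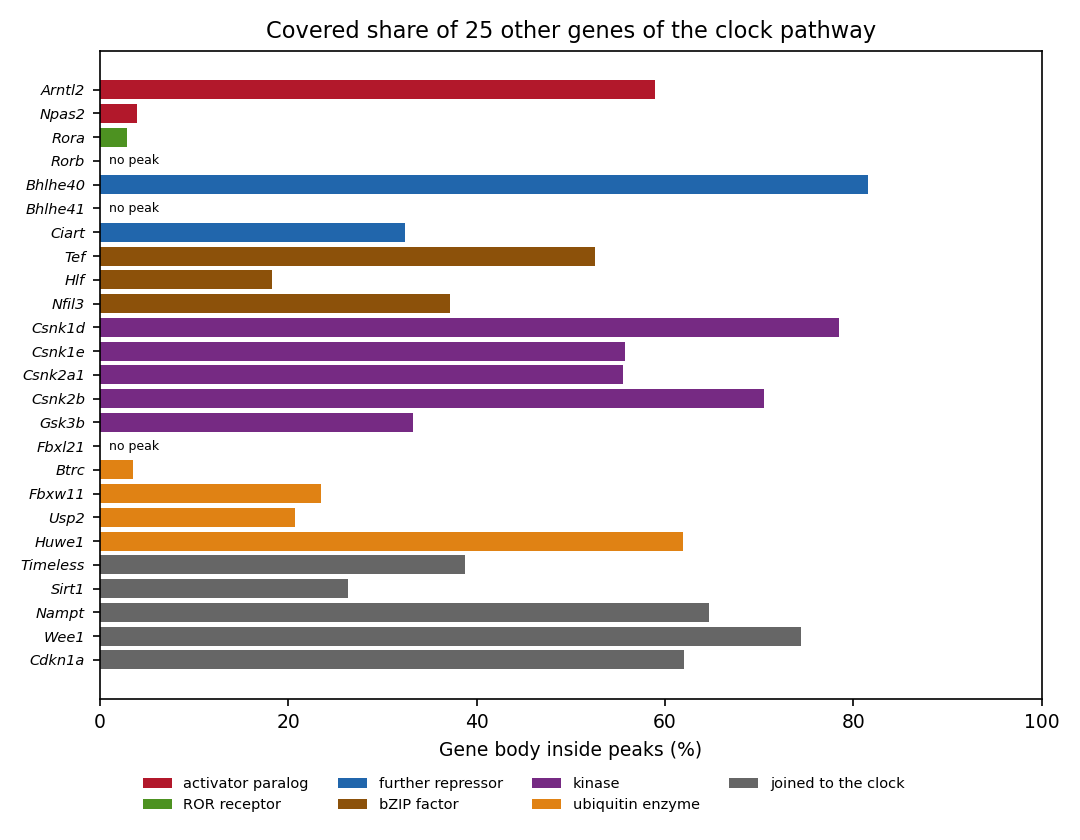
Bars give the percent of the gene body inside H3K36me3 peaks for 25 other genes of the clock pathway, coloured by role. 22 genes have a bar, up to 81.6% for *Bhlhe40*, and *Rorb*, *Bhlhe41* and *Fbxl21* have no peak.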

How the data were processed

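After trimming (Cutadapt, Trimmomatic), the authors mapped the reads by Bowtie2 2.2.6 on GRCm38. MACS2 2.1.1, with a *P*-value threshold of 0.01, gave the peaks, and ChIPseeker their annotation. The fold enrichment (a ratio to the caller's background), −log10 *P* and −log10 *q* are used as deposited by the authors. No source used here says whether the input served as control. Among the deposited peaks the smallest −log10 *P* is 2.76, stricter than the stated threshold, and the smallest −log10 *q* is 1.31. Peaks were used as intervals.

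Gene bodies, exons and transcripts came from GENCODE vM21 (GRCm38). The principal transcript is the APPRIS principal model with the longest coding sequence. Genes of similar length are those of 0.5 to 2 times the length. For covered shares they include genes without a peak, and for fold enrichments only genes with one, so the 2 kinds of position are not alike. Motifs were searched in RefSeq promoters (GRCm38.p6). Named genes were the 10 clock genes, 25 listed pathway genes (some items are not reported here), genes overlapping or neighbouring a clock gene and genes given its peaks. The members and lists were chosen with earlier results of these data known. Coverage code was tested on simulated data. Scripts ran under Python 3.11.15 with pandas 2.3.3, NumPy 2.4.6, matplotlib 3.10.9 and, for exact binomial intervals, SciPy 1.17.1. Alternatives changed the peak threshold, the joining of peaks, the overlap, the bases counted and the limits of the gene body.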

Additional observations from a re-analysis of the deposited data

How the results depend on the processing

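All values come from 1 library of unknown depth, so the choices below move values within that library and say nothing of variation between mice. The presence of a peak on all 10 clock genes held with a fold enrichment of at least 3, with a *q* below 0.01, with neighbouring peaks joined over gaps up to 1000 bp, which changed no covered share, and with an overlap of at least 5% of the body. With a *P* below 1e-05, 8 clock genes kept a peak, 5 kept an assigned peak, 3 were covered over at least 50%, the median covered share was 21.8%, and 11 of the 25 other genes had a peak. The median was 37.0% with a fold enrichment of at least 3, 50.2% with a *q* below 0.01, 52.0% on bases of no other protein-coding gene (9 genes, since *Per3* has no such base), 51.5% with the body extended by 3000 bp on each side and 61.4% without its first 10%. At least 25% of the body was covered in 10 genes and at least 75% in 3. The counts in this paragraph are of the listed genes only and have no share over all genes beside them. No replicate could be left out, and no paired analysis was possible because there is 1 library.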

Other observations

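Genes next to the clock genes were partly marked. Of the 20 nearest protein-coding genes that do not overlap them, 1 on each side, 15 had a peak on the body (51.4% of all protein-coding genes), with a median covered share of 33.0%. *Vamp3* (79.0%) and *Vamp2* (70.8%), which encode SNARE proteins of vesicle fusion, *Msl1* (75.7%), part of a histone acetyltransferase complex, and the ribosomal protein gene *Rpl15* (70.7%) were covered most. *Pdcl2*, *Car11*, *Hes6*, *Uts2* and *9130213A22Rik* had no peak. *Car11*, a carbonic anhydrase-related gene, ends 405 bp before the start of *Dbp*, and *Vamp2* ends 2832 bp before that of *Per1*. *Thrb*, the nearest gene after *Nr1d2* at 165963 bp, carried 12 peaks over 2.38% of its body. The thyroid hormone receptor gene *Thra*, which overlaps *Nr1d1*, carried 3 over 39.6%.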
